A study of Mus musculus with 4 samples.

Results

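Dystrophin, its homologue utrophin and 7 of their partner genes were examined for chromatin accessibility in quiescent satellite cells, the resting stem cells of skeletal muscle. The genes were Dmd, Utrn, Dag1, Sgcb, Sgcd, Sspn, Sntb1, Sntb2 and Dtna, and their members were all regions that the deposited annotation links to one of these names. This gave 11 regions of 35019 in the table, from 8 of the 9 genes. Sgcd had 0 linked regions, and 0 regions of the table overlapped its gene body of 1018.4 kb.

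The study compared sorted satellite cells of mdx mice, a model of Duchenne muscular dystrophy, with those of wild type mice by ATAC-seq. ATAC-seq cuts open chromatin with the Tn5 transposase, so that reads pile up where DNA is accessible. There were 2 libraries from mdx cells and 2 from wild type cells, while the design text speaks of 3 mice per condition. The labels used here name no strain, age or sex, and do not tie a library to an animal. The p-values therefore measure the spread between libraries alone, and that spread may be technical. The mdx allele is a nonsense mutation inside Dmd that stops full-length dystrophin from being made. It does not remove the Dmd regions measured here, so they cannot check the genotype labels.

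Dystrophin is a rod-shaped protein under the muscle fibre membrane that ties the actin cytoskeleton to the dystroglycan complex. Dystroglycan, encoded by Dag1, spans the membrane and binds laminin outside the cell. The sarcoglycans and sarcospan stabilise this link, and the syntrophins and dystrobrevins bind at its inner face as signalling adaptors. Utrophin takes the place of dystrophin in fetal muscle and is also found at the neuromuscular junction. In mouse satellite cells dystrophin is also known to act during activation, where it helps to orient cell division.

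Reads recovered in the listed regions numbered 3208478 and 3607633 for mdx, against 3693096 and about 8165826 for wild type. Promoter regions, defined as regions within 1 kb of the linked gene's start, took 52.76% and 57.21% of the nuclear reads of the mdx libraries, against 64.15% and 61.09% for wild type. Of 10 satellite cell marker genes, 10 had a linked region, and the summed values of their nearest regions were 1284 and 1311 in mdx and 1633 and 1509 in wild type. Markers of mature muscle fibres had a region for 3 of 7 genes (Myh1, Ttn and Casq1), with sums of 259 and 266 in mdx and 78 and 151 in wild type, and 1 of the 3 regions, that of Casq1, rose. Markers of fibro-adipogenic progenitors had one for 6 of 8, with sums of 427 and 427 in mdx and 282 and 323 in wild type. Among 6 endothelial and 6 immune markers, 1 gene each had a linked region, and neither Pecam1, Cdh5 nor Ptprc did. The immune region held 19 and 21 in mdx and 9 and 15 in wild type, and the endothelial region 152 and 131 in mdx and 131 and 146 in wild type. Of 4 Schwann cell markers 1 had a region, with 267 and 236 in mdx and 199 and 212 in wild type. Of 6 pericyte markers 4 had one, with sums of 338 and 258 in mdx and 226 and 277 in wild type. The satellite cell sums were lower in mdx, and the fibre, fibro-adipogenic progenitor, immune and Schwann cell values were higher. The median log2 fold change of the 10 satellite cell regions was -0.23, against -0.25 for all tested promoter regions. Of the satellite cell, fibro-adipogenic progenitor, immune and Schwann cell regions, 0 passed (limma, adjusted p under 0.05). The endothelial and pericyte values overlapped between genotypes. The part of the promoter share or of the marker sums in the results below was not tested.

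None of the 11 linked regions passed the test between mdx and wild type. Dmd had the highest log2 fold change, 0.91, and Sntb2 the lowest, -0.82. At an adjusted p under 0.05 (limma, adjusted over all 33161 tested regions), 0 rose and 0 fell, and voom on recovered reads also called 0. An unadjusted p under 0.05 was reached by 3. The share of all regions at that unadjusted threshold was not counted, here or below, so such counts have no base rate. At the adjusted threshold 4.18% of all tested regions passed, 3.30% as higher and 0.881% as lower. Over promoter regions 2.42% passed, 0.691% as higher and 1.73% as lower. Of all calls 78.9% were gains, against 92.0% with promoter medians set equal and 26.1% with distal medians set equal. Voom on recovered reads called 1994 of the 33161 regions, 1546 as higher and 448 as lower. The median log2 fold change of the 9 linked promoter regions was -0.38, against -0.25 for all 11292 tested promoter regions. In 2 of the 9 both mdx libraries lay above both wild type libraries, as in 10.4% of promoter regions. In 4 of the 9 both lay below, as in 43.5% of promoter regions. With 2 libraries a side, an exact permutation test of a single value cannot give a two-sided p under 0.333.

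**Figure D1:**
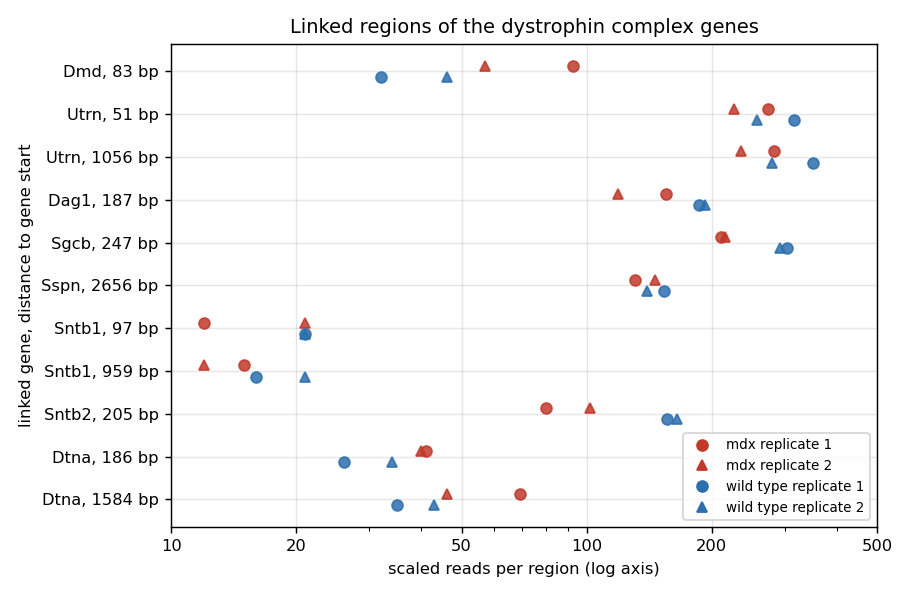
Scaled reads (horizontal log axis) in the 11 linked regions, labelled by gene and by the distance of the region's centre to the gene's start, with 1 point per library (circles for replicate 1, triangles for replicate 2). The mdx points lie right of the wild type points at Dmd and Dtna, left of them at Dag1, Sgcb, Sntb2 and the farther Sntb1 region, and among them at Utrn, Sspn and the nearer Sntb1 region.

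The starts of these genes differ in sequence. RefSeq promoter windows (GRCm38.p6, the mm10 build, 250 bases before to 50 after a start) were given for 6 of the 9 genes, in 9 windows. Printed below are 5 of the 6 windows that a region of the table overlaps, so that the letters under the measured signal can be read. Capitals mark matches to TTCCGG (N-box, an ETS site), GGGCGG (SP1 box), CAGCTG (E-box), TGANTCA (AP-1), CATTCC (TEAD) or the CArG box, searched on both strands. Windows are chrX:82948620-82948919 on the plus strand for the Dmd start near the linked region and chrX:85048045-85048344 on the plus strand for the Dmd start near the 3′ end. The others are chr9:108263909-108264208 on the minus strand for Dag1, chr5:73647688-73647987 on the minus strand for Sgcb and chr6:145933872-145934171 on the plus strand for Sspn.
Dmd, linked start: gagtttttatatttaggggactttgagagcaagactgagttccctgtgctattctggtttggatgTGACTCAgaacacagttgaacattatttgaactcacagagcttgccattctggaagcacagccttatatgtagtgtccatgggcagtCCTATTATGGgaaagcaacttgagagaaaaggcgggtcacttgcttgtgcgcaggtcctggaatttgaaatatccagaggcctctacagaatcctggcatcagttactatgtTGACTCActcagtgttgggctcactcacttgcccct
Dmd, 3′ start: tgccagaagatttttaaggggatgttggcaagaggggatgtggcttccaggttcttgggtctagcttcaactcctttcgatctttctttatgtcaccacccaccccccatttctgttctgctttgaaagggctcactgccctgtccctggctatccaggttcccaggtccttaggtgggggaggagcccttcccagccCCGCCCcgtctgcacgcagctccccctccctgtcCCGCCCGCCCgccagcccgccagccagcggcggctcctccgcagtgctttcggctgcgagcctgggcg
Dag1: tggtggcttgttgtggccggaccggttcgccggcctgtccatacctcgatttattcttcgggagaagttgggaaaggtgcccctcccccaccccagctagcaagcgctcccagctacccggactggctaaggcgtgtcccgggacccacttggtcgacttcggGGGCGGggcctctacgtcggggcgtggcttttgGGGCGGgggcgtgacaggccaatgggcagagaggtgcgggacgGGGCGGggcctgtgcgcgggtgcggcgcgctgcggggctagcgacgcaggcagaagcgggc
Sgcb: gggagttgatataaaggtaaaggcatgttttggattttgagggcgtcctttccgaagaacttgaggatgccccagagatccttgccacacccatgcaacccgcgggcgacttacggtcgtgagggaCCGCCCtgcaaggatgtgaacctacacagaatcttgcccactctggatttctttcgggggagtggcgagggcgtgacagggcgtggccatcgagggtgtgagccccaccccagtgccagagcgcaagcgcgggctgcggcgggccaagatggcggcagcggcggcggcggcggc
Sspn: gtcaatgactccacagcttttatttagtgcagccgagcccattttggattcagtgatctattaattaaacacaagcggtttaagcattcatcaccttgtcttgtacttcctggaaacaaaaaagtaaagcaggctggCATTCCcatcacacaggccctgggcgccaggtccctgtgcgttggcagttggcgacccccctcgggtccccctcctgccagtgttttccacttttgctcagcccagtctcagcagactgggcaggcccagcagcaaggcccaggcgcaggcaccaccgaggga

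The window of the linked Dmd start held 2 AP-1 matches and 1 CArG match, motifs found in 7.81% and 1.63% of 32851 promoter windows. It had a GC content of 45.7% and 2 CpG dinucleotides, where the median window had 52.7% and 7. The 3′ Dmd window held 14 CpG and 3 SP1 matches, 2 of which overlap, and SP1 matches occur in 35.7% of windows. Dag1 had 30 CpG and 3 SP1 matches in the printed window. A second Dag1 window, chr9:108263766-108264065, shares much of it, lies wholly inside the measured region with 47 CpG and 4 SP1 matches, and is not printed. Sgcb had 24 CpG and 1 SP1 match. The Sspn window had 8 CpG and 1 TEAD match, a motif found in 14.7% of windows. The printed windows held 0 N-box and 0 E-box matches, motifs found in 14.9% and 16.3% of windows. The window that the table gives for Utrn, chr10:12861686-12861985, was overlapped by 0 regions and is not printed. A match is a run of letters and not evidence that a factor binds.

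Dmd encodes dystrophin, and its linked region lies over the start of the full-length muscle transcript at chrX:82948664-82948976, with its centre 83 bp from the deposited gene start. It held 93 and 57 scaled reads in mdx, against 32 and 46 in wild type. Both mdx libraries were higher than both wild type libraries, and the nearest pair, mdx replicate 2 and wild type replicate 2, stood at 57 and 46. The log2 fold change was 0.91, SE 0.37, which limma did not call (adjusted p = 0.168). The 95% interval was 0.11 to 1.71. Without mdx replicate 1 the log2 fold change was 0.56, and without mdx replicate 2 it was 1.26. The values stand for about 67 and 49 reads (mdx) and 26 and 93 reads (wild type), so wild type replicate 2 rests on the most reads. The AP-1 and CArG matches printed above lie in this window.

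Utrn encodes utrophin and had a pair of linked regions near its start. The region over the start, chr10:12869056-12869572, held 274 and 227 in mdx and 316 and 257 in wild type. The neighbouring region, chr10:12868007-12868611, held 283 and 235 in mdx and 351 and 279 in wild type. In both regions the groups overlapped, and replicate 1 was the higher library of each group. The log2 fold changes were -0.19 and -0.28, with 95% intervals of -0.64 to 0.26 and -0.72 to 0.17 (limma, adjusted p = 0.617 and 0.449). The first of these was 0.01 with promoter medians set equal.

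Dag1, the gene of dystroglycan, had 1 linked region over its start at chr9:108263428-108264113. It held 155 and 119 in mdx and 186 and 193 in wild type. Both mdx libraries were lower, and the log2 fold change of -0.48 did not pass (limma, SE 0.23, adjusted p = 0.248). Without mdx replicate 1 it was -0.67, and without mdx replicate 2 it was -0.29.

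Sgcb encodes beta-sarcoglycan, a transmembrane partner of dystroglycan. Its region at chr5:73647217-73647869 held 211 and 215 in mdx and 303 and 292 in wild type, which is 213 ± 2.83 and 297.5 ± 7.78 (SD, n = 2 each). The libraries of each group lay close together and the groups did not overlap. The log2 fold change of -0.48 did not pass over all regions (limma, SE 0.19, adjusted p = 0.165). Sspn encodes sarcospan, which binds the sarcoglycans. Its region, chr6:145933997-145934597, is centred 2656 bp from the deposited start but covers the start site of the RefSeq window printed above. It held 131 and 146 in mdx and 154 and 140 in wild type, overlapping values with a log2 fold change of -0.09 (limma, adjusted p = 0.865). That value was 0.11 with promoter medians set equal.

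The syntrophins Sntb1 and Sntb2 encode beta1- and beta2-syntrophin, adaptors that bind dystrophin and utrophin. The Sntb2 region at chr8:106935508-106936402 held 80 and 102 in mdx and 156 and 165 in wild type. Both mdx libraries were well below both wild type libraries, and the log2 fold change of -0.82 had the smallest adjusted p of the 11 regions (limma, SE 0.25, adjusted p = 0.0832). It passed as lower among regions with a mean value of at least 50 (limma, adjusted p = 0.0447), as did 725 of 17549 such regions. With distal medians set equal it passed as lower (-1.16, limma, adjusted p = 0.0104), as did 3465 of all 33161 tested regions. With promoter medians set equal it did not pass (-0.62, limma, adjusted p = 0.169). The Sntb1 regions were near the lower limit of the test. The region at chr15:55906781-55906922 held 12 and 21 in mdx and 21 and 21 in wild type. The region at chr15:55905920-55906060 held 15 and 12 in mdx and 16 and 21 in wild type. Neither passed (limma, log2 fold changes -0.38 and -0.42, adjusted p = 0.703 and 0.676), and their intervals reached from -1.58 to 0.74.

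Dtna encodes alpha-dystrobrevin, a dystrophin-related adaptor. Its linked regions both lie before the deposited start on chromosome 18. The nearer, chr18:23415136-23415376, held 41 and 40 in mdx and 26 and 34 in wild type. The farther, chr18:23413727-23413989, held 69 and 46 in mdx and 35 and 43 in wild type. In both, the mdx libraries were higher than the wild type libraries, with log2 fold changes of 0.43 and 0.53 that did not pass (limma, adjusted p = 0.543 and 0.417).

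Per kb of region, the nearest region of Utrn had the highest level, 485.5 ± 64.4 scaled reads per kb in mdx and 555.2 ± 80.9 in wild type (SD, n = 2 each). Sgcb followed with 326.7 ± 4.34 in mdx and 456.3 ± 11.9 in wild type. In wild type the order then ran Dag1 (276.6 ± 7.23), Sspn (245 ± 16.5), Sntb2 (179.5 ± 7.12), Sntb1 (148.9, the same value in both libraries), Dmd (125 ± 31.7) and Dtna (125 ± 23.6). The value of Sntb1 was within 1 SD of that of Dmd, and Dmd and Dtna had the same mean. Sntb1 and Dtna differed by slightly more than the SD of Dtna, with 2 libraries each. In mdx Dmd ranked 3 of 8 at 240.4 ± 81.6, with Sspn at 230.8 ± 17.7, Dag1 at 200 ± 37.2 and Dtna at 169 ± 2.95, and Dmd could not be told apart from these neighbours. Sntb1 at 117 ± 45.1 and Sntb2 at 102 ± 17.4 were lowest in mdx.

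The deposited annotation links few regions beyond a gene's start, so the bodies of these genes were also searched by RefSeq position. In Dmd, Utrn, Sntb1 and Dtna lay 29 regions with no linked gene, of which 28 were tested. Of the 28, 3 rose and 0 fell in mdx (limma, adjusted p under 0.05), or 1 in Sntb1 and 2 in Dtna. Of the 28, 3 reached the filter through the mdx libraries alone, with both wild type values under 10, and such a region could enter only by being higher in mdx. They are Dtna at 177.4 kb, one of the regions that rose, Sntb1 at 100.4 kb and Dmd at 2245.1 kb. Among the other 25, 2 rose, against 397 of 10790 regions of this kind with the same restriction. Of all 11048 tested regions of this kind, 4.52% rose and 0.380% fell. The median log2 fold change of the 28 was 0.37, against 0.23 for the 11048. In 13 of the 28 both mdx libraries lay above both wild type libraries, as in 37.0% of such regions, and in 1 both lay below, as in 15.8%. The 13 and the median of 0.37 include the 3 regions tested through mdx alone, in which both mdx libraries had to lie above. Regions tested in that way were 10.7% of the 28 and 2.34% of the 11048. Dag1, Sgcb, Sgcd, Sspn and Sntb2 had 0 regions with no linked gene inside them.

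**Figure D2:**
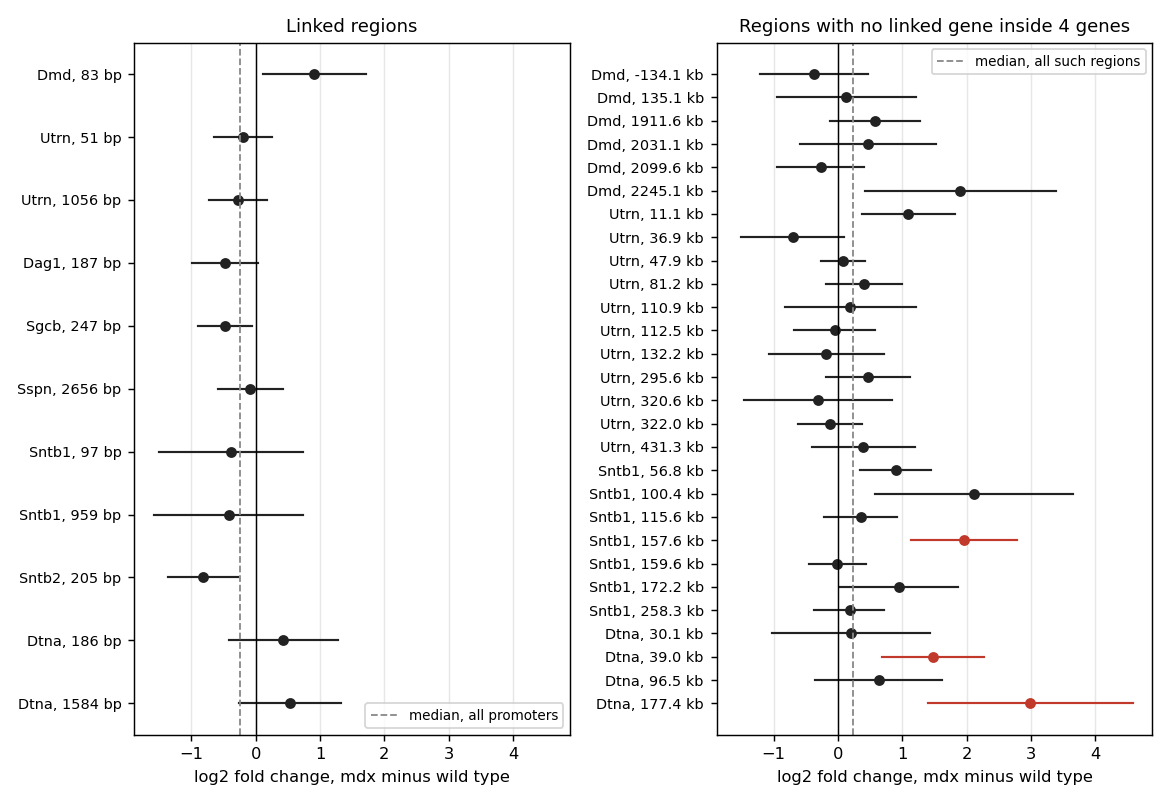
The horizontal axis gives the log2 fold change (mdx minus wild type) and its 95% interval from limma for the 11 linked regions (left) and the 28 tested regions with no linked gene inside Dmd, Utrn, Sntb1 and Dtna (right), labelled by distance from the gene's start. Red marks an adjusted p under 0.05, at 1.96, 1.48 and 2.99, and the dashed lines mark the medians of -0.25 for all promoters and 0.23 for all regions with no linked gene inside a RefSeq gene.

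Inside Sntb1, a region 157.6 kb from the start, chr15:55749223-55749409, rose in mdx. It held 94 and 91 in mdx and 17 and 31 in wild type. The log2 fold change was 1.96, SE 0.38 (adjusted p = 0.0187 by limma). A region about 2 kb away at 159.6 kb, chr15:55746717-55747885, held 328 and 257 in mdx and 269 and 318 in wild type and was at -0.01 (limma, adjusted p = 0.983). The neighbour is wider and holds more reads in all, and its groups overlapped. Per kb, the 157.6 kb region stood at 497.3 ± 11.4 in mdx and 129 ± 53.2 in wild type, and the neighbour at 250.4 ± 43.0 in mdx and 251.3 ± 29.7 in wild type (SD, n = 2 each). This neighbour, and every region inside a gene named from here on that did not pass, was chosen after values were seen, for groups that did not overlap, for its high signal or for lying over another start. The region at 56.8 kb held 254 and 184 in mdx and 100 and 134 in wild type (0.90 on the log2 scale, adjusted p = 0.0666 by limma). At the same threshold of 0.05 it passed as higher in 6 alternatives that kept all libraries, among them cyclic loess (adjusted p = 0.033) and the replicate block (0.0344). The region at 100.4 kb held 26 and 13 in mdx and 4 and 3 in wild type, and was tested only through its mdx values (2.12 on the log2 scale, adjusted p = 0.103 by limma). The region at 172.2 kb held 130 and 49 in mdx and 38 and 44 in wild type, so mdx replicate 1 carried most of its log2 fold change of 0.95 (limma, adjusted p = 0.202). The region at 258.3 kb held 127 and 119 in mdx and 118 and 100 in wild type.

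Inside Dtna, regions at 39.0 kb and 177.4 kb from the start rose in mdx. The first, chr18:23454287-23454500, held 69 and 63 in mdx and 23 and 23 in wild type. The log2 fold change was 1.48, SE 0.37 (adjusted p = 0.0431 by limma). The libraries of each group were close together. The call ended when distal medians were set equal (1.14, adjusted p = 0.0502) and when low values were not filtered (adjusted p = 0.0733). The second, chr18:23592596-23593012, held 73 and 16 in mdx and 4 and 3 in wild type, and was tested only because its mdx values passed the filter. Its log2 fold change of 2.99 (limma, SE 0.73, adjusted p = 0.0417) became 1.93 when mdx replicate 1 was left out and 4.05 when mdx replicate 2 was. The mdx libraries of this region differed from each other more than in the other 2 regions that passed. Its call ended with no filter (adjusted p = 0.0789) and with a pseudocount of 0.1 (0.0577). A region at 96.5 kb held 29 and 30 in mdx and 16 and 22 in wild type and did not pass (limma, adjusted p = 0.443).

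Inside Utrn, 0 of 11 regions passed (limma, 1 with an unadjusted p under 0.05, and 0 with voom). The highest signal of any region linked to or inside the 9 genes lay at 47.9 kb, chr10:12821129-12821713, with 779 and 704 in mdx and 760 and 647 in wild type. Its groups overlapped, with a log2 fold change of 0.08 and a 95% interval that reached 0.42 (limma, adjusted p = 0.806). The region at 11.1 kb, chr10:12858046-12858517, held 174 and 116 in mdx and 49 and 89 in wild type, and both mdx libraries were higher (log2 fold change 1.09, limma, SE 0.33, adjusted p = 0.0804). It passed as higher with the replicate block (adjusted p = 0.0214) and among regions with a mean value of at least 50 (0.0271). The regions at 295.6 kb and 431.3 kb also had both mdx libraries above, at 73 and 91 in mdx and 61 and 57 in wild type for the one, and 41 and 49 in mdx and 32 and 36 in wild type for the other. At 36.9 kb both mdx libraries were below, with 28 and 35 in mdx and 51 and 52 in wild type (-0.70 on the log2 scale, adjusted p = 0.277 by limma).

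Inside Dmd, 0 of 6 regions passed (limma, 1 with an unadjusted p under 0.05, and 0 with voom). Dmd has several starts that give full-length and short dystrophins, and the data cover more than 1 of them. A region at -134.1 kb, chrX:82814665-82815028, lies at the first bases of the RefSeq gene, upstream of the muscle start. It held 54 and 29 in mdx and 51 and 52 in wild type (-0.37 on the log2 scale, adjusted p = 0.606 by limma). A region at 2099.6 kb, chrX:85048029-85048896, covers the RefSeq start near the 3′ end, where the short isoform Dp71 is known to begin. It held 126 and 73 in mdx and 98 and 136 in wild type (-0.26 on the log2 scale, adjusted p = 0.652 by limma). At both of these starts the groups overlapped, while at the linked start they did not, and the difference between the starts was not tested. The regions at 1911.6 kb and 2245.1 kb had both mdx libraries above, with 100 and 81 in mdx and 48 and 75 in wild type for the one and 32 and 16 in mdx and 9 and 3 in wild type for the other, which was tested only through its mdx values. Neither passed (limma, adjusted p = 0.306 and 0.126).

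**Figure D3:**
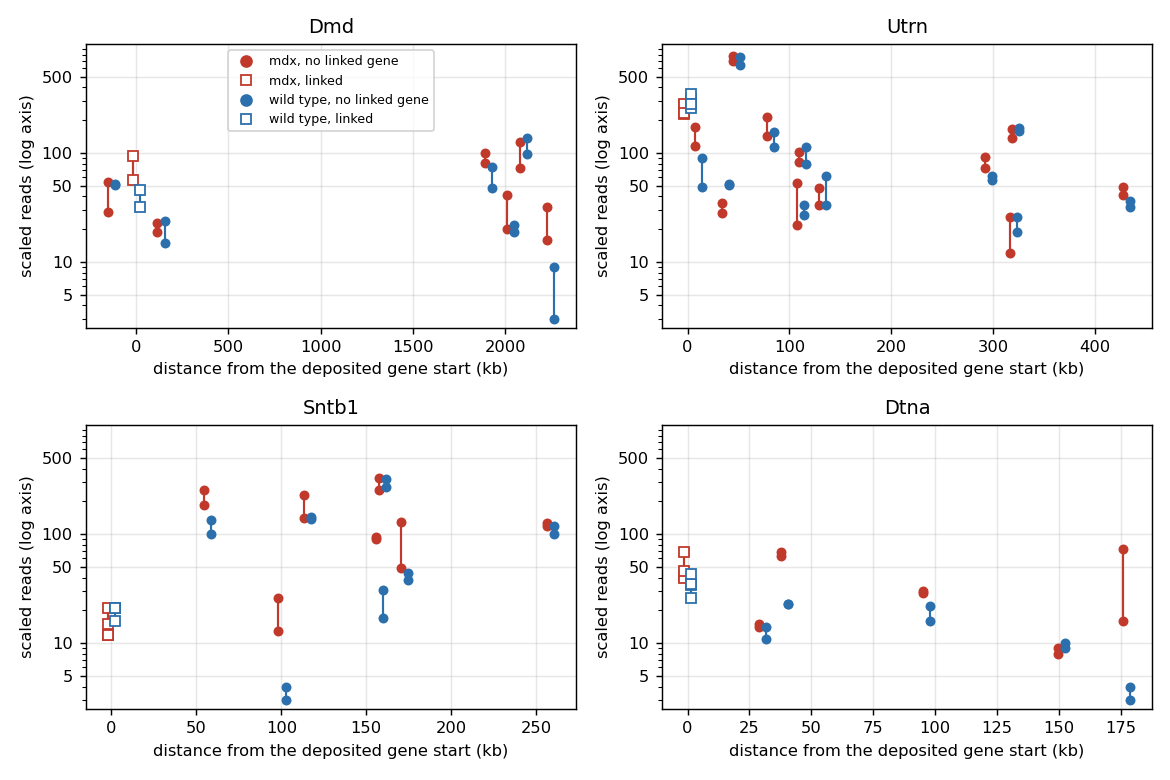
Scaled reads (vertical log axis) against distance from the deposited gene start in kb, for Dmd, Utrn, Sntb1 and Dtna, with 1 point per library and a line joining the 2 libraries of a group; open squares are linked regions, drawn at 0, and the groups are set slightly apart sideways. The mdx points lie clearly above the wild type points at 157.6 kb in Sntb1 and at 39.0 kb and 177.4 kb in Dtna, and near them at 47.9 kb in Utrn.

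The signal inside each of these 4 genes was set against the signal of its linked regions in the same library. This ratio does not depend on the factor by which a library was scaled. For Sntb1 it was 43.9 and 25.9 in mdx and 18.5 and 18.4 in wild type. For Dtna it was 1.75 and 1.55 in mdx and 1.03 and 0.935 in wild type, and for Utrn 2.97 and 3.19 in mdx and 2.23 and 2.5 in wild type. In these 3 genes both mdx libraries were above both wild type libraries, as in 54.6% of the 2593 genes with both kinds of region. For Dmd it was 4.04 and 4.18 in mdx and 7.59 and 6.72 in wild type, and both mdx libraries were below, as in 6.32% of those genes. The scaled reads inside Dmd overlapped between the groups, at 376 and 238 in mdx and 243 and 309 in wild type. The denominator for Dmd is the 1 linked region described above, at 93 and 57 in mdx and 32 and 46 in wild type. The Dmd ratio is therefore not separate from the difference at that region. With 2 libraries a side the exact permutation test cannot go below 0.333, and no other test of the ratios was run. The Sntb1 ratio rests on linked regions of few reads, summing to 27 and 33 in mdx and 37 and 42 in wild type.

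**Figure D4:**
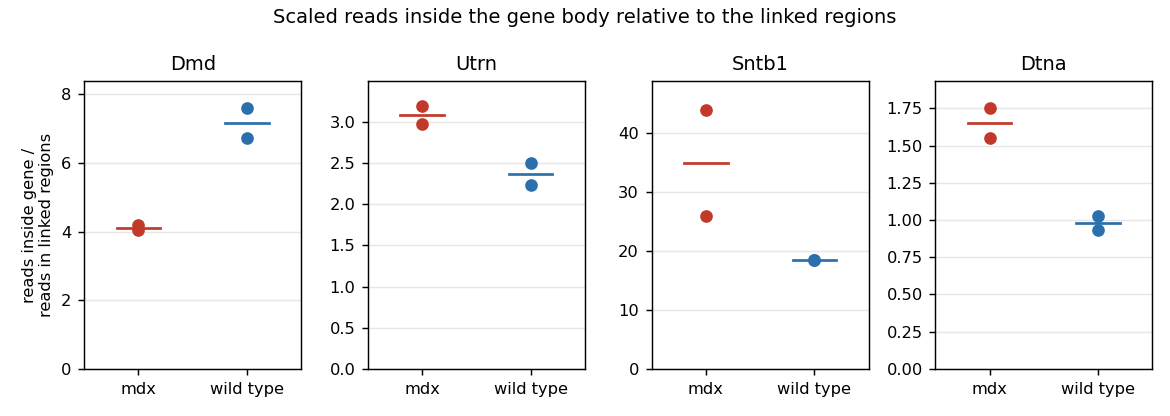
Scaled reads in regions with no linked gene inside the gene body divided by scaled reads in the linked regions (vertical axis, from 0), for Dmd, Utrn, Sntb1 and Dtna, with 1 point per library and a bar at the group mean. The mdx points are below the wild type points for Dmd and above them for Utrn, Sntb1 and Dtna.

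Other genes of the pathway were read from 3 lists, in which 22 of 30 genes had a tested linked region, 27 regions in all. Of these 0 rose and 1 fell, against 1.14% and 1.45% of all 14357 tested regions with a linked gene. The median log2 fold change was -0.18, against -0.21 for those regions. Left out of these counts are a further list, in which a region passed, and a gene of another list, as stated under the processing. Among other members of the complex, 0 of 11 regions from 8 genes passed (limma, 3 with an unadjusted p under 0.05). For these regions voom on recovered reads called 1, Sntg2, as lower, against 448 of all 33161 tested regions. Sntg2, gamma2-syntrophin, named after its values were seen, held 178 and 143 in mdx and 335 and 251 in wild type (-0.86 on the log2 scale, adjusted p = 0.0539 by limma). Sgce, epsilon-sarcoglycan, held 122 and 129 in mdx and 177 and 170 in wild type (-0.46 on the log2 scale, adjusted p = 0.249 by limma). Dtnb, beta-dystrobrevin, held 145 and 125 in mdx and 175 and 135 in wild type. Cav3, the muscle fibre caveolin, held 61 and 40 in mdx and 22 and 23 in wild type (1.10 on the log2 scale, adjusted p = 0.133 by limma). Cav3 was picked here after its values were seen. Fibre marker sums, from 3 of 7 genes, were also higher in mdx, and any relation to Cav3 was not tested.

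Laminin-type ligands of dystroglycan had 10 tested regions and 0 passed (limma, 1 with an unadjusted p under 0.05, and 0 with voom). Lama2, a chain of muscle laminin, held 213 and 177 in mdx and 200 and 237 in wild type (-0.16). Agrn, agrin, held 162 and 99 in mdx and 187 and 123 in wild type (-0.26). The groups overlapped at both. Factors known to act on the utrophin promoter had 6 tested regions, of which 1 fell and 0 rose. Sp3, a GC-box binding factor, fell at chr2:72978822-72980958, with 691 and 838 in mdx and 1474 and 1234 in wild type (-0.82 on the log2 scale, SE 0.15, adjusted p = 0.0163 by limma). Sp3 passed under every alternative that kept all libraries, with a log2 fold change of -0.50 after cyclic loess (limma, adjusted p = 0.0176). With 1 library left out its log2 fold change ran from -0.96 to -0.69. Gabpa, a subunit of the N-box binding factor GABP, held 760 and 780 in mdx and 1054 and 836 in wild type (-0.29, limma, adjusted p = 0.295).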

How the data were processed

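ATAC-seq libraries of 10000 to 20000 sorted cells each, cut with Tn5 at 37 °C for 30 min, were analysed, 2 per genotype. The submitters' processing notes name MACS2 2.1.0, DESeq, DESeq2, STAR 2.5.3a, Trimmomatic 0.33 and Picard 2.9.0, with build mm10. What each did, and how duplicates, the Tn5 offset and pooling for peak calling were handled, is not given in the sources used here. As read from the numbers themselves, each deposited value is a score, the region's reads times a factor the authors set for its library, rounded. Factors of 1.382, 1.162 and 1.222 explain which whole numbers never occur in mdx replicates 1 and 2 and wild type replicate 1. A factor of about 0.492 was estimated for wild type replicate 2. Dividing by them gave the reads quoted, which are not library totals. Those of wild type replicate 2 are approximate, since its factor is an estimate. Coordinates are printed as deposited, and whether starts count from 0 or 1 is not stated.

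limma 3.58.1 (R 4.3.3) with an intensity trend was fitted on log2(value + 1) over the 33161 regions where 2 or more libraries reached a value of 10, group as the only term, with Benjamini-Hochberg adjustment over all of them, called at 0.05. Each fold change sets mdx over wild type on that scale and so understates changes at low values. Nothing was adjusted over the members alone. The script was tested on simulated data. RefSeq gene bodies (GRCm38.p6) had to overlap a region by at least 1 bp, and 99.9% of 10216 matched symbols overlapped the deposited gene. Members, lists and tests were chosen with earlier results of these data known. By the naming rule all 11 linked regions, regions inside genes that passed, list members that passed and 5 fixed list genes are named; exceptions are marked. A list of dystroglycan glycosylation genes, in which a region passed, and a gene of another list, which did not pass, are not reported here and stand in no count. The rule also asked for the Utrn promoter sequence, which is left out because 0 regions overlap its window. Alternatives covered scaling, filters, pseudocounts, the threshold, the promoter window, the replicate block, voom on recovered reads and each library left out. Counting intervals are not given, since reads without molecular identifiers are not independent molecules.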

Additional observations from a re-analysis of the deposited data

How the results depend on the processing

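Of 11 linked regions, 0 passed as reported. The count was 3 lower with distal medians set equal (Dag1, Sgcb and Sntb2), a setting in which 3465 of all 33161 tested regions passed as lower. It was 1 lower (Sntb2) at a threshold of 0.1 and with a mean value of at least 50. The count was 0 under the other alternatives. Their median log2 fold change of -0.28 became -0.08 with promoter medians set equal, -0.61 with distal medians set equal and -0.15 after cyclic loess, and ran from -0.34 to -0.11 with 1 library left out. Over all regions the median stood at -0.01, at 0.19 with promoter medians equal and at -0.35 with distal medians equal. Inside the genes the count of 3 became 5 at a threshold of 0.1, 5 with the replicate block and 1 with no filter, the Sntb1 region at 157.6 kb. It was 4 with scaling by totals, promoter medians set equal, cyclic loess or a pseudocount of 10. It was 2 with distal medians set equal or a pseudocount of 0.1. With a mean value of at least 50 it was 3, of which 1 was among the 3 reported. Over all regions the count of 1387 became 3372 at a threshold of 0.1, 4687 with distal medians set equal, 2245 after cyclic loess, 458 with no filter and 2203 with a pseudocount of 10. With any 1 of the 4 libraries left out it was 0, inside the genes too, and the lone library was assumed to vary like the other group. The promoter window of 500 bp left the promoter median at -0.38. The cause of each shift was not tested.

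The labels do not say whether same-numbered libraries share a preparation. Deviations of same-numbered libraries correlated at -0.109 over regions, which cannot settle this with 2 libraries a side. The replicate block gave 2761 calls over all regions, and 0 among the linked ones. The crossed pairing, chosen after seeing the data, gave 5461.

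Of 31 regions followed one by one, signs turned near 0. With promoter medians set equal Utrn at 51 bp was 0.01, Sspn 0.11, Lama2 0.03 and Dtnb 0.01. With distal medians set equal the Sntb1 region at 258.3 kb was -0.16. Gabpa was 0.01 after cyclic loess. With a library left out, the Sntb1 region at 97 bp ran from -0.76 to 0.00, and Agrn reached 0.04 without wild type replicate 1 and 0.09 without mdx replicate 2.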

Other observations

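Inside the bodies of Utrn, Dtna and Sspn lay 5 more regions that the deposited annotation links to another gene id with no name. None of the 5 passed (limma, 1 with an unadjusted p under 0.05, and 0 with voom). In Utrn, the region at 444.8 kb held 86 and 89 in mdx and 49 and 62 in wild type, with a log2 fold change of 0.66 (limma, adjusted p = 0.216). The Utrn region at 72.7 kb held 189 and 220 in mdx and 293 and 256 in wild type (-0.42, limma, adjusted p = 0.241). Of the remaining 3, at 18.4 kb in Utrn, 239.1 kb in Dtna and 14.3 kb in Sspn, the groups overlapped. A Dtna region at 151.0 kb held 8 and 9 in mdx and 9 and 10 in wild type and was below the filter.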
